A study of Mus musculus with 12 samples.

Results

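Untreated ZHBTc4 mouse embryonic stem cells lacking Phf6 were compared with their wild-type (WT) counterparts by RNA sequencing, using 2 Phf6 knockout (KO) libraries and 2 WT libraries of the 12 in the series. The 4 libraries were chosen by their genotype and treatment labels. All groups derive from ZHBTc4, a 129/Ola line whose own Pou5f1 alleles are disrupted and whose Oct4 is made from a doxycycline-repressible transgene, so KO and WT cells alike carry that background. Untreated cells were grown without feeders on gelatin, in serum with LIF, after early passages on mouse embryonic fibroblasts. The other 8 libraries are KO and WT cells given 0.5 µg/ml doxycycline for 2 days, and KO and WT cells given retinoic acid without LIF for 4 days, with 2 libraries per group. The labels do not give the Phf6 allele, the number of clones per genotype or whether replicates come from different cultures. The p-values therefore measure only the spread between these libraries, which may be technical. Where each genotype is a single clone, a difference between clones and the effect of the mutation cannot be told apart.

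PHF6 is a chromatin-binding protein of the nucleus and nucleolus with a pair of extended PHD zinc fingers. Its gene is X-linked and is mutated in Börjeson-Forssman-Lehmann syndrome and in T-cell leukaemia, and the protein is known to bind the NuRD complex and to act on ribosomal RNA transcription. The series title names it as a ubiquitin ligase for histone H2B that acts on trophectodermal genes, the genes of the outer layer of the blastocyst. The untreated comparison asks what loss of Phf6 does before Oct4 is withdrawn.

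The 4 libraries held 16971245 to 18767773 expected counts. In the fit over all 12 libraries, a typical gene varied by 4.4% between replicates beyond counting error. The 9 markers of embryonic stem cells summed to 8290 and 8350 CPM (counts scaled to library size) in the KO libraries, against 7290 and 7420 CPM in the WT libraries. The 10 feeder fibroblast markers summed to 48.6 and 46.3 CPM in KO cells, against 32.0 and 35.4 CPM in WT cells, with 2 of 9 tested higher and 1 lower, and Lum at 3 counts or fewer in every library. Trophectoderm markers summed to 47.6 and 42.9 CPM in KO cells and to 64.2 and 62.2 CPM in WT cells. The 6 neural markers summed to 403 and 400 CPM in KO cells, against 422 and 428 CPM in WT cells. Fewer cells of a type and less RNA per cell cannot be told apart in bulk samples, and the part of these other cell types in the results was not tested.

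Phf6 (chrX:52912266-52956943, mm10) fell to 4.49 and 6.5 CPM in KO cells, against 42.8 and 40.2 CPM in WT cells. This was a log2 change of -2.91 ± 0.12 (standard error; edgeR quasi-likelihood test, adjusted p = 2.6e-16, n = 2 each); changes below are on the same log2 scale with their standard errors. KO libraries therefore still held Phf6 reads. Of 11 genes within 1 Mb of Phf6 at 1 CPM or more, 2 were higher and 2 lower in KO cells, with a median log2 change of -0.12. Pou5f1, whose reads were not split between transgene and native copies, reached 1200 and 1190 CPM in KO cells, against 1030 and 1010 CPM in WT cells, a change of 0.22 ± 0.09 that did not pass (adjusted p = 0.075). It passed when the 4 untreated libraries were fitted alone and when the filter on low counts was dropped.

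Of 17884 genes tested, 5369 (30.0%) differed between KO and WT cells at an adjusted p under 0.05. Genes higher in KO cells numbered 2713 (15.2%) and genes lower numbered 2656 (14.9%). With scaling factors computed without chromosome 1 genes, 2380 were higher and 2933 lower. Genes that differed numbered 3609 with effective-length offsets, 3772 with DESeq2 and 6000 with the untreated libraries fitted alone. Leaving out any 1 library left 1669 to 1793 higher, the fewest without WT replicate 2, and 2031 to 2160 lower. Most differences were small, with 63.1% of them under 1.5-fold. At least 2-fold, 457 genes (2.56%) were higher and 414 (2.31%) lower. When chromosome 1 genes were left out of the fit, 4641 of 16812 genes differed (27.6%), 2319 higher (13.8%) and 2322 lower (13.8%).

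Predicted, clone-based and pseudogene symbols were left out of the rankings of changed genes. Among the other genes of at least 5 CPM in the higher group, the largest rise was that of a gene nearly silent in WT cells. Xcr1 (chr9:123852315-123862029), a chemokine receptor known from dendritic cells, had 6.98 and 6.38 CPM in KO cells, against 0.176 and 0.374 CPM in WT cells, a log2 change of 4.58 ± 0.31 (adjusted p = 4.6e-12). Islr2 (chr9:58196297-58204319), a membrane protein of neurons, had 50.9 and 48.4 CPM in KO cells, against 13.2 and 13.8 CPM in WT cells (1.87 ± 0.09, adjusted p = 2.1e-15). Scn3b, a sodium channel subunit, and Fbln2, a matrix protein, rose by 1.75 ± 0.20 and 1.81 ± 0.16. Hydin, a component of motile cilia, rose by 1.83 ± 0.16, and Ndufa4l2, a mitochondrial protein induced by low oxygen, by 1.87 ± 0.25. Pou2f3, the regulator of tuft cells, had 16.9 and 16.8 CPM in KO cells, against 4.7 and 5.6 CPM in WT cells, an increase of 1.71 ± 0.16.

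By the same measure the largest fall was that of H19, the maternally expressed imprinted RNA (chr7:142575529-142578143), which had 0.897 and 0.304 CPM in KO cells, against 21.8 and 23.7 CPM in WT cells (-5.24 ± 0.18, adjusted p = 2.4e-18). Meis2 (chr2:115863064-116065839), a homeobox partner of Hox proteins, had 0.577 and 0.243 CPM in KO cells, against 4.65 and 5.85 CPM in WT cells (-3.67 ± 0.29, adjusted p = 7e-11). Of the 15 largest falls 6 lay on the X chromosome, Phf6 among them, and the others were Xlr3a, Efhc2, Fmr1nb, Pnma5 and Rhox5. The X held 672 of the 17884 genes tested, with 205 (30.5%) lower and 44 (6.55%) higher. Ttn fell by 2.95 ± 0.13, Casq1, a calcium store protein of muscle, by 2.45 ± 0.27 and Smyd1, a muscle methyltransferase, by 2.38 ± 0.18. Ttn, which encodes the giant sarcomere protein titin, had 5.13 and 4.13 CPM in KO cells, against 38.2 and 33.4 CPM in WT cells, but because its transcript is so long its mean deposited level was only 0.075 TPM in KO cells and 0.54 TPM in WT cells. Cdkn2a, the locus of the p16 and p19 cell cycle inhibitors, had 3.65 and 2.8 CPM in KO cells, against 17.9 and 18.2 CPM in WT cells (-2.49 ± 0.17, adjusted p = 1.8e-10).

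**Figure D1:**
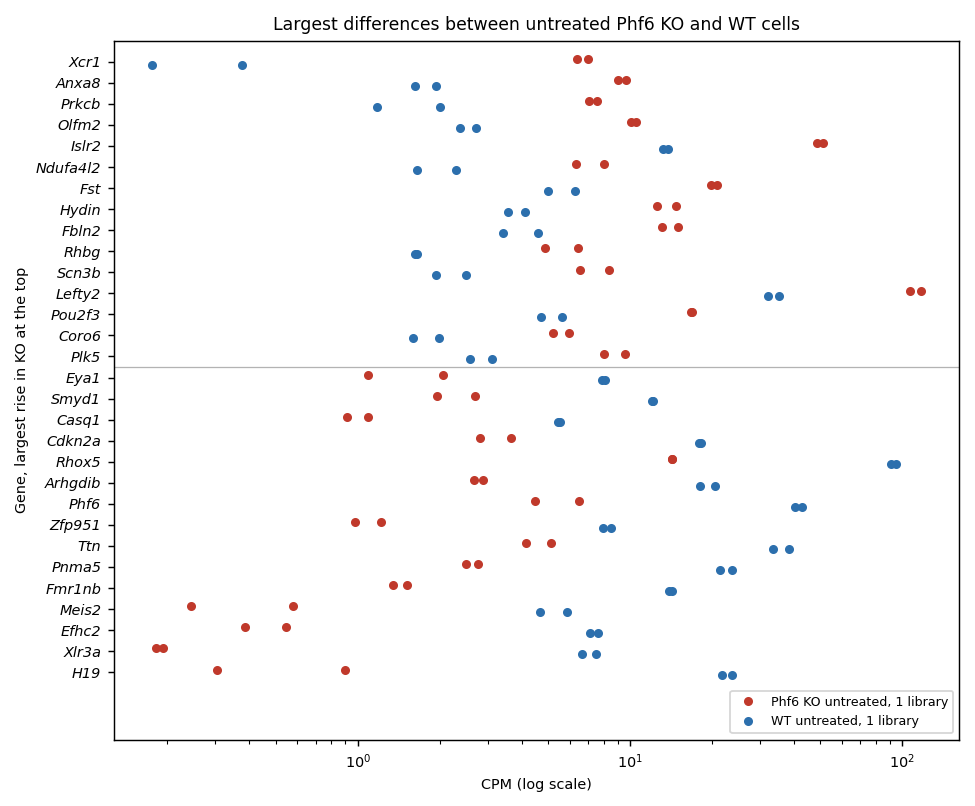
CPM on a log axis for the 15 largest rises (above the line) and the 15 largest falls (below it) among genes of at least 5 CPM, with 1 point per untreated library, KO in red and WT in blue. Genes were taken only where the groups do not overlap, and predicted, clone-based and pseudogene symbols were left out. Xcr1 stood at 6.98 and 6.38 CPM in KO cells, against 0.176 and 0.374 CPM in WT cells.

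Among genes with high levels per transcript length, those at least 2-fold higher in KO cells were led by Trh, the thyrotropin-releasing hormone precursor, at a mean of 149 TPM in KO cells and 52.8 TPM in WT cells. Its log2 change was 1.46 ± 0.06 (adjusted p = 5.4e-16). The LIM proteins Crip1 and Crip2, neighbours on chromosome 12, rose by 1.44 ± 0.13 and 1.01 ± 0.08. Cpt1a, which admits fatty acids to the mitochondrion, had 142 and 146 CPM in KO cells, against 75.1 and 67.0 CPM in WT cells (1.02 ± 0.06). In the other direction, Prdx6, an antioxidant enzyme encoded on chromosome 1, had a mean of 186 TPM in KO cells and 365 TPM in WT cells. Bcat1, which catabolises branched-chain amino acids, had 120 TPM in KO cells and 252 TPM in WT cells. Lncenc1, a long noncoding RNA of naive ES cells, had 49.5 and 43.2 CPM in KO cells, against 234 and 217 CPM in WT cells (-2.28 ± 0.07, adjusted p = 3.2e-18). Atrx, the X-linked chromatin remodeller, had 250 and 267 CPM in KO cells, against 598 and 537 CPM in WT cells (-1.13 ± 0.12, adjusted p = 0.00024).

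Genes on chromosome 1 were mostly lower in KO cells. Its 790 genes at 1 CPM or more had a median log2 change of -0.48, with 86.5% below 0, whereas the medians of the other autosomes lay between -0.06 and 0.1. In the 18 bins of 10 Mb on chromosome 1 that held at least 10 genes the medians ran from -0.62 to -0.32. Of the 1087 chromosome 1 genes tested, 26 were higher and 562 lower. Ptma, the prothymosin gene, had 4270 and 4110 CPM in KO cells, against 5500 and 5510 CPM in WT cells (-0.39 ± 0.05, adjusted p = 3.6e-07). Rpl31, which encodes a ribosomal protein, fell by 0.40 ± 0.08. The other 4 chromosome 1 genes of highest level were Gm28661, Gm10925, Gm29216 and Gm28437, which are nuclear copies of mitochondrial genes. At least 97.2% of their 31-base words occur in mitochondrial transcripts, so their reads are uncertain, and none passed the test.

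Beyond chromosome 1, 7 of 238 bins of 10 Mb had a median past 0.25 in either direction. Of these, 4 also did so with doxycycline and with retinoic acid, and they form a pair of 20 Mb stretches that were picked after their values were seen and so carry no test. On chromosome 8 between 60 and 80 Mb, 162 genes had a median of -0.35 with 83.3% below 0, and the rest of the chromosome had a median of 0.0. On the X chromosome between 90 and 110 Mb, 91 genes had a median of -0.65 with 89.0% below 0, and the rest of the X had a median of -0.09. In that X stretch 68 genes were lower and 0 higher. The medians of the chromosome 8 stretch were -0.43 with doxycycline and -0.43 with retinoic acid, and those of the X stretch -0.51 and -0.62. Just under the cut, chromosome 5 bins starting at 0, 20, 30 and 60 Mb had medians of 0.22, 0.24, 0.20 and 0.24. These were 0.39, 0.20, 0.12 and 0.29 with doxycycline and 0.26, 0.23, 0.24 and 0.44 with retinoic acid. The bin starting at 40 Mb had -0.08. On chromosome 5, 24.5% of tested genes were higher and 7.81% lower, against 16.4% and 11.7% over all autosomes but chromosome 1. Atrx and the ribosomal protein gene Rps4x (-0.65 ± 0.06) lie in the X stretch, and the NuRD subunit gene Gatad2a (-0.44 ± 0.05) lies in the chromosome 8 stretch. Of 13 Y-linked genes tested 5 were higher in KO cells and 0 lower. The 3 tested members of the Y-linked list were all among those higher. Eif2s3y, a translation initiation factor, had 50.7 and 48.8 CPM in KO cells, against 21.1 and 22.6 CPM in WT cells (1.19 ± 0.07), and Ddx3y and Uty rose by 1.45 ± 0.11 and 1.22 ± 0.13. DNA copy number was not measured here.

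**Figure D2:**
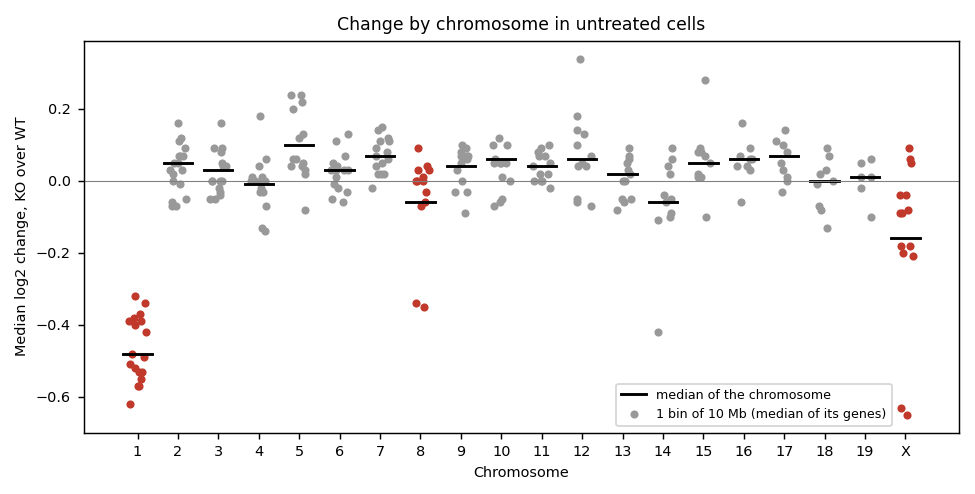
Median log2 change, KO over WT, in untreated cells for each 10 Mb bin of at least 10 genes (points) and each chromosome (bars), with chromosomes 1, 8 and X in red. Every chromosome 1 bin drawn lies between -0.62 and -0.32, and a pair of bins on chromosome 8 and on the X lie apart from the rest of theirs.

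The counts for gene lists that follow are to be set against the 15.2% higher and 14.9% lower of all genes tested. Counts with 1 library left out cannot be set against these shares, because fewer of all genes passed in those fits. Of 28 pluripotency genes 7 were higher and 9 lower in KO cells, with a median of 0.04 against 0.022 over all genes tested. Klf4, a naive pluripotency factor, had 503 and 495 CPM in KO cells, against 280 and 287 CPM in WT cells (0.82 ± 0.05, adjusted p = 6.9e-13). Sox2, the partner of Oct4, rose by 0.38 ± 0.05. Nanog had 739 and 770 CPM in KO cells, against 964 and 930 CPM in WT cells (-0.33 ± 0.05, adjusted p = 3.9e-06). Lin28a, which blocks let-7 maturation, fell by 0.86 ± 0.05, and on chromosome 1 Nr5a2 fell by 0.80 ± 0.08 and Tfcp2l1 fell by 0.49 ± 0.05. Factors of the naive state moved in both directions. Among 14 genes of the LIF pathway 4 were higher and 2 lower, or 2 higher and 1 lower without WT replicate 2. Pim1, a kinase induced by Stat3, had 47.6 and 53.3 CPM in KO cells, against 107 and 102 CPM in WT cells (-1.05 ± 0.07). Of 19 formative epiblast genes 6 were higher and 6 lower, with Otx2 at 0.42 ± 0.10 and Grhl2, an epithelial regulator, at -1.45 ± 0.16.

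Of 29 trophectoderm genes tested 13 were lower and 2 higher, with a median of -0.40, where 14.9% of all genes tested were lower and 15.2% higher. Leaving out 1 library left 0 or 1 higher. Tfap2c had 38.6 and 37.5 CPM in KO cells, against 58.7 and 59.1 CPM in WT cells (-0.63 ± 0.07, adjusted p = 1.7e-07), and its relative Tfap2a fell by 2.63 ± 0.38 from a low level, with 0.192 and 0.425 CPM in KO cells and 1.59 and 2.37 CPM in WT cells. The placental genes Wnt7b and Esx1 stood at -2.22 ± 0.19 and -1.62 ± 0.18, and Krt8, a keratin of simple epithelia, fell by 0.53 ± 0.11. Cdx2, the regulator of the lineage, had 0.641 and 0.304 CPM in KO cells, against 1.18 and 0.996 CPM in WT cells (adjusted p = 0.03), and its call was lost without KO replicate 2 or without either WT replicate. Primitive endoderm genes were split, 5 higher and 5 lower of 25. Of 17 fibroblast genes 6 were higher and 3 lower, the lower count being 0 without KO replicate 2 or WT replicate 2 and 1 without WT replicate 1. Col6a2, a collagen, had 3.97 and 5.35 CPM in KO cells, against 1.35 and 1.18 CPM in WT cells.

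Of 20 genes of histone H2B ubiquitination, the activity named in the title, 4 were higher and 2 lower, with a median of 0.05, near the 15.2% higher and 14.9% lower of all genes tested. The E3 ligase genes Rnf20 and Rnf40 stood at 0.01 ± 0.06 and 0.05 ± 0.05 and did not pass, while the H2B deubiquitinase gene Usp44 rose by 0.51 ± 0.10. Leaving out KO replicate 2 left 2 higher, and leaving out KO replicate 1 or either WT replicate left 1 lower. In the NuRD list, 2 of 15 were higher and 6 lower, and Mbd3, a core subunit, had 103 and 101 CPM in KO cells, against 133 and 137 CPM in WT cells (-0.40 ± 0.06). The higher count was 1 without either KO replicate or without WT replicate 2. Polycomb repressive complex 2 gave 0 higher and 3 lower of 11, with Ezh2 at -0.07 ± 0.05 and not passing. Ribosome biogenesis genes gave 2 higher and 14 lower of 38, and 9 lower of 33 in the fit without chromosome 1, which leaves out Ncl, Nop58, Rrs1, Wdr12 and Taf1a. Ncl, the nucleolin gene, had 2440 and 2310 CPM in KO cells, against 3890 and 3990 CPM in WT cells (-0.73 ± 0.06, adjusted p = 5.5e-11). Of 76 ribosomal protein genes, 6 were higher and 7 lower, with 1 higher when KO replicate 1 or WT replicate 1 was left out.

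Imprinted genes included several that were nearly lost in KO cells. Imprinting silences 1 parental copy of a gene by DNA methylation. Of 37 tested 8 were higher and 14 lower, the higher count being 5 without WT replicate 2 and 5 with scaling factors computed without chromosome 1. Meg3, the maternally expressed RNA of the Dlk1-Dio3 domain, had 0 reads in both KO libraries, against 1.88 and 2.37 CPM in WT cells, and was at least 11.4-fold lower at a floor of 3 counts per library. Its neighbour Mirg also had 0 reads in KO cells, against 0.353 and 0.498 CPM in WT cells (at least 2.28-fold lower). In the same domain Rian fell by 2.98 ± 0.34 and Dio3 fell by 1.08 ± 0.16, and Dlk1 stood at -0.30 ± 0.29 without passing. Plagl1, a paternally expressed zinc finger gene, had 0.0641 and 0 CPM in KO cells, against 1.82 and 1.99 CPM in WT cells (adjusted p = 1.3e-07). Going the other way, Mest had 65.6 and 62.8 CPM in KO cells, against 22.3 and 23.4 CPM in WT cells (1.49 ± 0.06, adjusted p = 5.1e-16), and the neighbours Slc22a18 and Cdkn1c rose by 1.54 ± 0.16 and 0.97 ± 0.07.

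DNA methylation is known to silence several of the next families. The X-linked Xlr and Rhox families had 0 of 17 higher and 10 lower, a median of -2.14, or -2.09 with genes at 0 reads set to their bound. Over all X-linked genes tested, 30.5% were lower and 6.55% higher. Rhox6 and Rhox9, both lower, are also members of the trophectoderm list. Rhox5, a homeobox gene known to be silenced by promoter methylation, had 14.2 and 14.3 CPM in KO cells, against 90.5 and 94.6 CPM in WT cells (-2.70 ± 0.07, adjusted p = 8.2e-21). Copies of Xlr are near identical, so their reads cannot be assigned surely; summed over its 3 copies, Xlr3 had 1.22 and 1.58 CPM in KO cells and 9.94 and 11.2 CPM in WT cells, 7.56-fold lower in KO cells. Germline genes were mixed, 4 of 26 higher and 9 lower. Dazl, an RNA-binding protein of germ cells, rose by 0.89 ± 0.14, and Tex19.1, which restrains transposons, fell by 0.86 ± 0.06. Among 13 genes of DNA methylation 6 were higher and 2 lower, with 3 higher without WT replicate 2. Tet2, which oxidises methylcytosine, had 628 and 631 CPM in KO cells, against 437 and 390 CPM in WT cells (0.61 ± 0.06), and Zfp57, which protects imprints, rose by 0.50 ± 0.05. Dnmt3l, the cofactor of the de novo methyltransferases, fell by 0.57 ± 0.06. Of 18 genes of the two-cell-like state 1 was higher and 8 lower, with 3 to 5 lower when 1 library was left out. The Zscan4 genes of that state, summed over 6 copies, had 5.25 and 4.56 CPM in KO cells and 10.1 and 11.7 CPM in WT cells, 2.22-fold lower in KO cells.

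**Figure D3:**
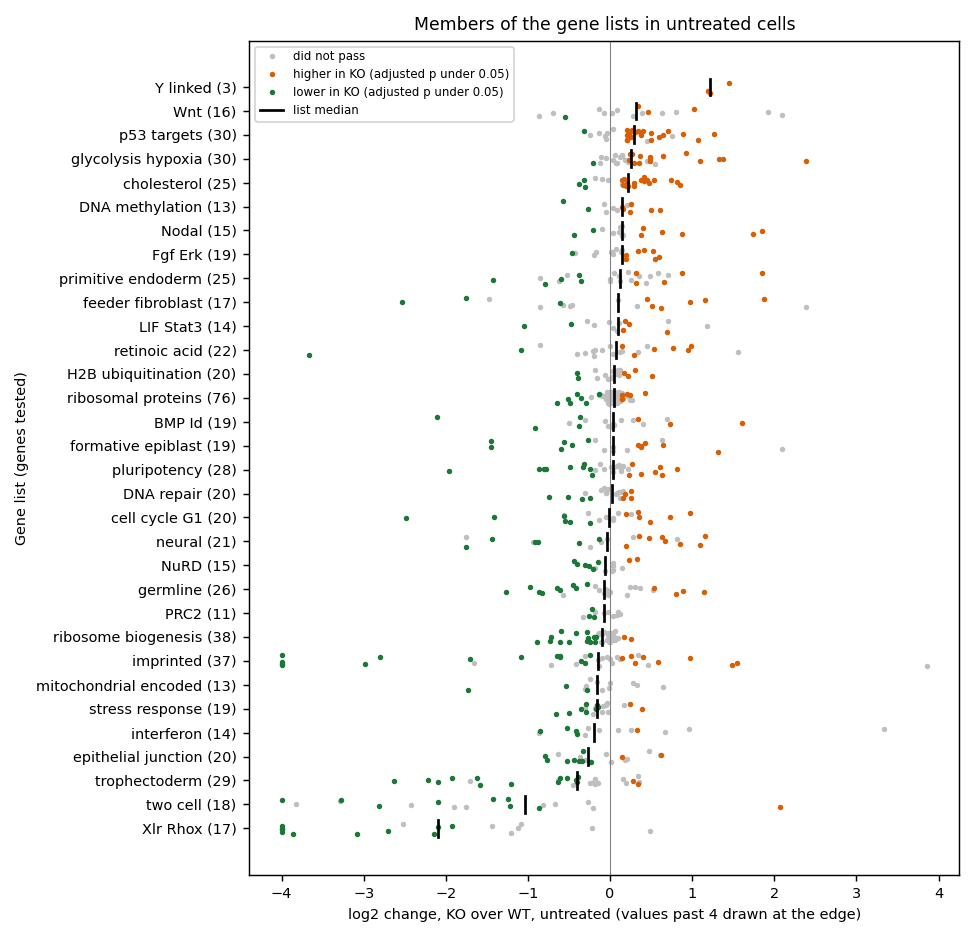
Log2 change, KO over WT, of each tested member of the 32 gene lists in untreated cells, with members that passed in orange (higher) or green (lower), the rest in grey and a bar at the list median. The Xlr and Rhox, two-cell and trophectoderm lists lie lowest and the Y-linked list highest.

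Of 25 genes of cholesterol synthesis and uptake 18 were higher and 3 lower, with a median of 0.22 against 0.022 over all genes tested. The factor SREBP2 drives this pathway when cell sterol is low. Insig1, the SREBP2 target that retains the factor in the endoplasmic reticulum, had 251 and 246 CPM in KO cells, against 142 and 142 CPM in WT cells (0.81 ± 0.07, adjusted p = 1.3e-08). Dhcr7, the last enzyme of cholesterol synthesis, had 93.7 and 95.2 CPM in KO cells, against 63.1 and 67.2 CPM in WT cells (0.54 ± 0.07, adjusted p = 2.2e-07). Cyp51, the lanosterol demethylase, rose by 0.47 ± 0.06, and Hmgcs1, an early enzyme, by 0.29 ± 0.05. Pmvk, a kinase of the mevalonate steps, fell by 0.32 ± 0.07. In the fit without chromosome 1 genes, 15 of 24 were higher and 2 lower. With doxycycline 16 of the 25 were higher and 1 lower, with a median of 0.23, and with retinoic acid 6 were higher and 6 lower, with a median of -0.07.

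Of 30 targets of p53 tested 21 were higher and 1 lower, with a median of 0.29, and 12 were higher without KO replicate 2 or without WT replicate 1. Plk2 had 45.0 and 52.4 CPM in KO cells, against 19.9 and 20.9 CPM in WT cells (1.26 ± 0.08, adjusted p = 1.4e-12). The cell death gene Bbc3 rose by 1.07 ± 0.10, Ccng1 by 0.71 ± 0.05 and Mdm2, the inhibitor of p53, by 0.36 ± 0.05. Cdkn1a, the p21 inhibitor, had 27.0 and 33.4 CPM in KO cells, against 23.2 and 24.7 CPM in WT cells (adjusted p = 0.011), a call lost without KO replicate 2 or WT replicate 1. Ercc5, the member that fell, is a chromosome 1 gene. With doxycycline 17 of the 30 p53 targets were higher and 1 lower, with a median of 0.31. With retinoic acid 3 were higher and 11 lower, with a median of -0.1. In untreated cells, the fit without chromosome 1 genes gave 16 of 27 higher and 0 lower. Of 20 genes of the G1 phase 6 were higher and 6 lower. All 3 D-type cyclin genes, which start the G1 phase, fell, Ccnd1 by 0.55 ± 0.07, Ccnd2 by 1.41 ± 0.27 and Ccnd3 by 0.49 ± 0.05. In DNA repair 4 of 20 were higher and 4 lower, and Xrcc5 and Parp1, both on chromosome 1, stood at -0.74 ± 0.05 and -0.51 ± 0.05. The higher count was 1 without WT replicate 2 and 2 without either KO replicate.

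In glycolysis and the hypoxia response, which the HIF factors drive through a short DNA element, 15 of 30 genes were higher and 1 lower, with a median of 0.26. Aldoc, a glycolytic enzyme, had 22.4 and 26.5 CPM in KO cells, against 10.0 and 9.65 CPM in WT cells (1.32 ± 0.16, adjusted p = 4.6e-06). Bnip3, which acts in mitophagy, had 46.9 and 57.4 CPM in KO cells, against 21.1 and 28.0 CPM in WT cells (1.10 ± 0.19, adjusted p = 0.0049). P4ha1, the collagen prolyl hydroxylase, had 28.8 and 34.5 CPM in KO cells, against 18.1 and 22.4 CPM in WT cells (0.65 ± 0.10, adjusted p = 2.4e-05). Vegfa, the angiogenic factor, had 30.1 and 29.4 CPM in KO cells, against 34.5 and 34.5 CPM in WT cells (-0.21 ± 0.07, adjusted p = 0.025), a call lost when any 1 library was left out. The promoters of Aldoc, Bnip3 and P4ha1 from RefSeq (GRCm38.p6), 250 bases before to 50 after the start, are shown because these genes rose together and carry the core letters ACGTG of the HIF element or its reverse complement, in capitals. Aldoc lies at chr11:78322823-78323122 on the plus strand, Bnip3 at chr7:138909457-138909756 on the minus strand and P4ha1 at chr10:59323046-59323345 on the plus strand.
Aldoc: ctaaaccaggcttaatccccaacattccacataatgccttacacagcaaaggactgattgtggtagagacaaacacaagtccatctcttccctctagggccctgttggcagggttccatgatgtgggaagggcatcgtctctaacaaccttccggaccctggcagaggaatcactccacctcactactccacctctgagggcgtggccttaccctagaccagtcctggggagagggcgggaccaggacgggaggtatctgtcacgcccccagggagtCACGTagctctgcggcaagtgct
Bnip3: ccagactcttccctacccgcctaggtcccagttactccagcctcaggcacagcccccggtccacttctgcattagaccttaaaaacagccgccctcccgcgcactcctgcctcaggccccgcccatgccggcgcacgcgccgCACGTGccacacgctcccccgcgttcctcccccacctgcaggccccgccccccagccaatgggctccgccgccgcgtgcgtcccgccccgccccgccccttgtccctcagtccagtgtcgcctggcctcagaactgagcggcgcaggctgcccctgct
P4ha1: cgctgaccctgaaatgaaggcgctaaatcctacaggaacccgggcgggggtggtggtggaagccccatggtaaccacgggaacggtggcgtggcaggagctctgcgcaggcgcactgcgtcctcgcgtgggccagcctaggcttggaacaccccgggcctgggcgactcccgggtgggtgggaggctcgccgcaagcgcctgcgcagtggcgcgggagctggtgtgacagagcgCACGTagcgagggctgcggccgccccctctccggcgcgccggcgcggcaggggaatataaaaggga
ACGTG on either strand occurred in 14 of the 27 list promoters, 6 of the 14 whose genes rose and 8 of the 13 others. The share was 19.6% of all 32851 promoters and 24.7% of the 12334 tested genes with a promoter. In Bnip3 the matches on both strands overlap. A match is only a string of letters. Of the 30 genes of the glycolysis and hypoxia list, 13 were higher and 9 lower with doxycycline, with a median of 0.17. With retinoic acid 16 were higher and 1 lower, with a median of 0.22. In untreated cells, the fit without chromosome 1 genes gave 15 higher and 2 lower.

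**Figure D4:**
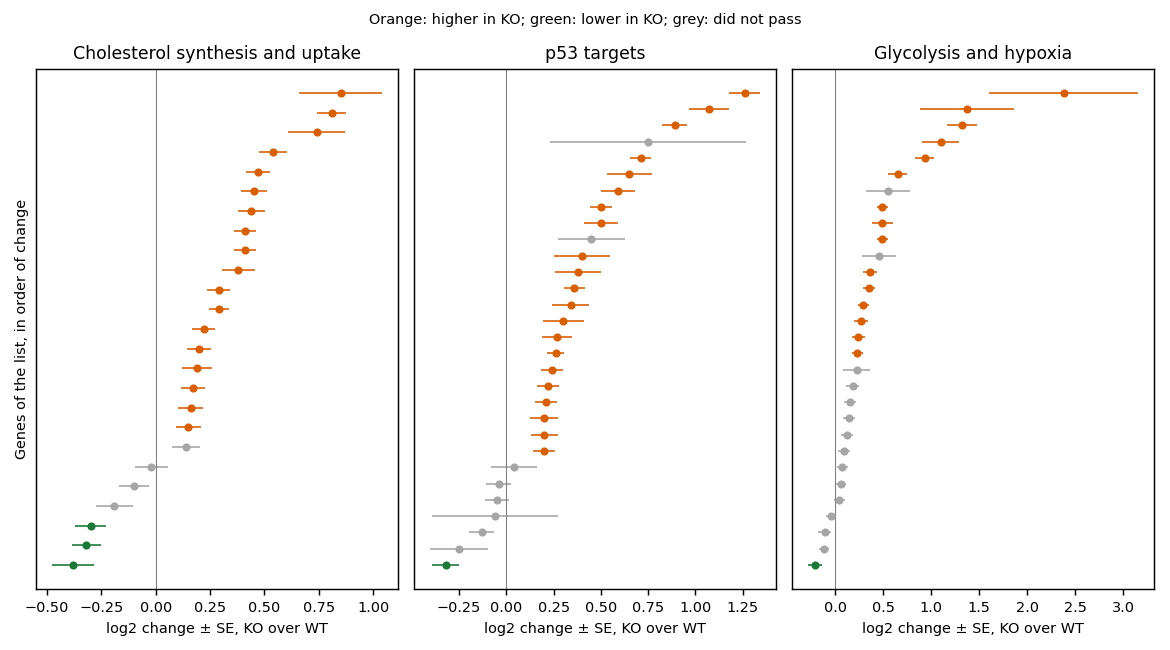
Log2 change ± standard error, KO over WT, for each tested gene of the cholesterol, p53 and glycolysis and hypoxia lists in untreated cells, 1 point per gene in order of its change, with genes that passed in orange (higher) or green (lower). Of the genes that passed, 18 of 21, 21 of 22 and 15 of 16 lie to the right of 0.

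Signalling genes were mixed, with Nodal antagonists among the larger rises. Lefty2, a secreted Nodal inhibitor and Nodal target (chr1:180893108-180899103), had 117 and 107 CPM in KO cells, against 35.1 and 32.2 CPM in WT cells (1.74 ± 0.08, adjusted p = 1.5e-15), although it lies on chromosome 1. Fst, an inhibitor of activin, had 20.9 and 19.9 CPM in KO cells, against 5.0 and 6.29 CPM in WT cells (1.85 ± 0.15, adjusted p = 1.1e-10). Nodal itself rose by 0.38 ± 0.07 and Lefty1 by 0.88 ± 0.10, and in the list of 15 genes 6 were higher and 2 lower. The lower count was 1 without KO replicate 2 or WT replicate 2. In Fgf and Erk signalling 7 of 19 were higher and 1 lower, with the feedback genes Dusp6 and Spry4 at 0.55 ± 0.06 and 0.41 ± 0.05, and 4 were higher without WT replicate 1. In the BMP list 3 of 19 were higher and 4 lower, among them Id1, a direct target, at 0.73 ± 0.12 and the inhibitory Smad6 at -0.92 ± 0.15. Without WT replicate 1 the higher count was 1, and without KO replicate 1 the lower count was 2. Wnt genes gave 3 higher and 1 lower of 16, and the lower count was 2 without either KO replicate. In the retinoic acid list, 6 of 22 were higher and 2 lower, and the binding protein Crabp1 had 53.4 and 54.3 CPM in KO cells, against 27.6 and 26.5 CPM in WT cells (0.99 ± 0.07, adjusted p = 3.1e-11). The higher count was 3 without KO replicate 1 and 2 without WT replicate 2. Meis2 was one of the pair that fell.

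Of the remaining lists, epithelial junction genes gave 2 higher and 9 lower of 20, with Cldn4, a tight junction protein, at -0.77 ± 0.07 and Cdh1, E-cadherin, at -0.23 ± 0.05. Leaving out either KO replicate or WT replicate 2 left 0 higher, and leaving out WT replicate 1 left 5 lower. In the stress response list, 2 of 19 were higher and 8 lower, and Asns, the asparagine synthetase, fell by 0.66 ± 0.05 and its regulator Atf4 by 0.29 ± 0.05. Here the lower count was 5 without WT replicate 2 and the higher count 1 without KO replicate 2. Neural genes gave 8 higher and 6 lower of 21, with Elavl3 at 1.10 ± 0.14 and Gap43 at -0.88 ± 0.08, and 3 lower without KO replicate 2 or WT replicate 2. Interferon genes gave 1 higher and 4 lower of 14, with Oas1a at -0.85 ± 0.11. The mitochondrial genome gave 0 higher and 3 lower of 13, and mt-Cytb alone passed when 1 library was left out.

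The KO to WT difference was also measured in treated cells, which share no library with the untreated ones. With doxycycline 6614 of 17884 genes differed (37.0%), 3197 higher (17.9%) and 3417 lower (19.1%) in KO cells. With retinoic acid 6936 differed (38.8%), 3355 higher (18.8%) and 3581 lower (20%). Genes higher in untreated KO cells were also higher with doxycycline in 1188 cases, 43.8% of the untreated and 37.2% of the doxycycline list, and with retinoic acid in 1221 cases, 45.0% and 36.4% of those lists. Shared lower genes numbered 1440 with doxycycline (54.2% and 42.1%) and 1495 with retinoic acid (56.3% and 41.7%). Called the opposite way were 266 of the untreated higher genes (9.8%) and 198 of the lower genes (7.45%) with doxycycline, and 275 (10.1%) and 197 (7.42%) with retinoic acid. Without chromosome 1 genes, 46.6% of the untreated lower genes were also lower with doxycycline and 48.3% with retinoic acid. H19, Smyd1, Zfp951 and Phf6 were lower in KO cells in each condition, and Xcr1, Olfm2, Hydin and Fbln2 higher. Smyd1 differed by -2.38, -2.37 and -2.16 in untreated, doxycycline and retinoic acid cells. The KO to WT difference itself changed for 3425 genes with doxycycline (19.2%) and 3157 with retinoic acid (17.7%). Meis2 differed by -3.67 ± 0.29 in untreated cells, and by 0.29 with doxycycline (adjusted p = 0.27) and 0.37 with retinoic acid (adjusted p = 2.3e-05).

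**Figure D5:**
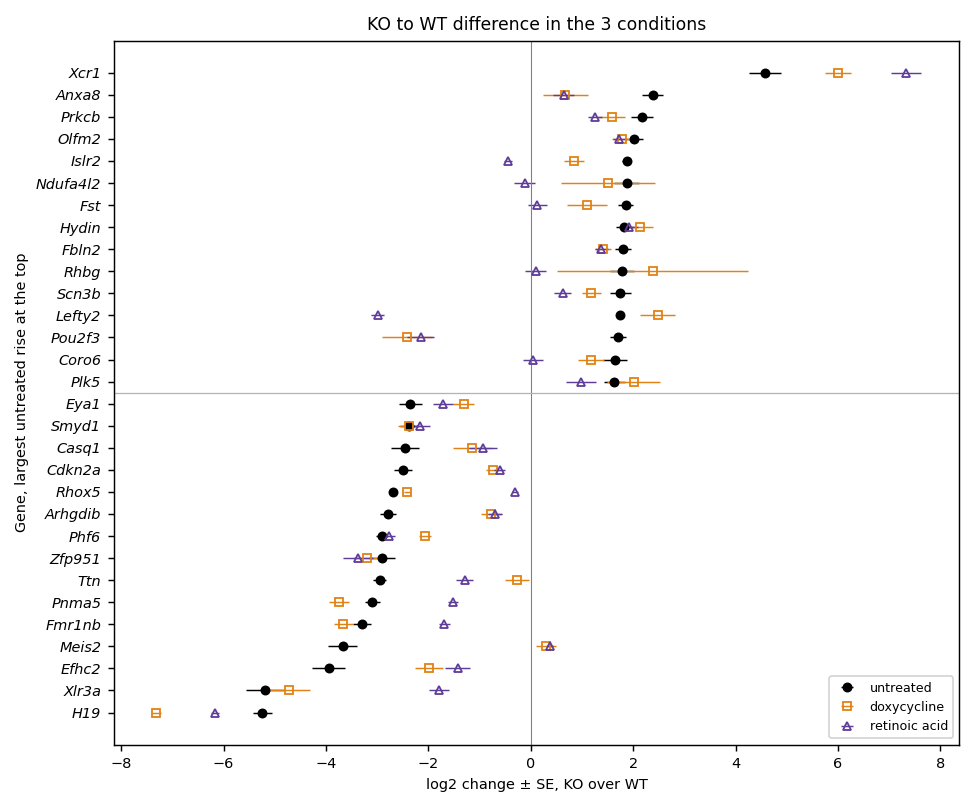
Log2 change ± standard error, KO over WT, for the 15 largest rises and 15 largest falls of untreated cells, in untreated, doxycycline and retinoic acid cells. Predicted, clone-based and pseudogene symbols were left out. Phf6 lies well below 0 in all 3, Pou2f3 changes side with both treatments, and Lefty2 with retinoic acid.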

How the data were processed

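RNA-seq of ZHBTc4 cells was used: 12 libraries in 6 groups of 2. Per the submitters' processing notes, the tools were STAR 2.5.3a, RSEM 1.3.0 and DESeq2 1.18.1, and the build was mm10. Neither the strand setting nor the annotation release is given in the sources used here. The authors deposited, per gene and library, expected counts (unnormalized estimates), TPM (scaled to transcript length and depth) and effective lengths. RSEM splits reads among similar copies, which limits values of near-identical genes.

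Expected counts were rounded to whole numbers and fitted in edgeR 4.0.16 (R 4.3.3) with 1 term per group over all 12 libraries (6 residual degrees of freedom), TMM scaling, a minimum count of 10 in filterByExpr and quasi-likelihood tests with Benjamini-Hochberg adjustment at 0.05. CPM use TMM-scaled library sizes; TPM are the deposited values. The standard error is the log2 change divided by the root of F. The fit was checked on simulated data. Of 53379 genes, 53274 had GENCODE M21 coordinates.

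Members and gene lists were chosen with earlier results of these data known. Named genes were Phf6 and Pou5f1, the 15 largest changes each way at 5 CPM or more without overlap of libraries, the 8 of highest TPM each way at least 2-fold, the 6 chromosome 1 genes of highest TPM, and list members. The largest changes and the 8 of highest TPM each way leave out predicted, clone-based and pseudogene symbols. Alternatives were other scalings, no low-count filter, effective-length offsets, DESeq2 1.42.0, the untreated libraries alone, a replicate term, each library left out, and fits without chromosome 1 genes. Standard errors hold the spread between these libraries as well as counting error, and floors cover counting error only.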

Additional observations from a re-analysis of the deposited data

Results flagged for a closer look

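Among the 51 named genes, the KO to WT difference with doxycycline differed from that in untreated cells for 23, by a test of the difference itself (edgeR interaction term, adjusted p under 0.05, where 19.2% of all genes passed). The log2 difference with doxycycline minus that in untreated cells was -4.13 for Pou2f3, 3.95 for Meis2, 2.69 for Ttn, -2.07 for H19 and 2.02 for Arhgdib. Pou2f3 changed sign, the Meis2 difference no longer passed with doxycycline, Ttn and Arhgdib came closer to 0, and H19 moved further below 0.

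With retinoic acid 30 of the 51 differed from untreated cells, against 17.7% of all genes. The differences were -4.72 for Lefty2, 4.04 for Meis2, -3.86 for Pou2f3, 3.39 for Xlr3a and 2.75 for Xcr1. The named genes were chosen on their values in untreated cells, which enter both differences. Their counts therefore cannot be read against the shares of all genes. Retinoic acid libraries also differed from the others in RNA extraction, per the labels, and the part of that in these differences was not tested.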

How the results depend on the processing

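Phf6 kept its fall in every alternative fit. The count of higher genes was 1632 with effective-length offsets, 1697 with DESeq2 and 1669 to 1793 with 1 library left out, and the count of lower genes 2031 to 2160. Differing genes numbered 3700 to 3949 with 1 library left out, and without chromosome 1 genes 3080 to 3320, or 3054 with effective-length offsets. Over all genes tested, 3609 differed with effective-length offsets and 3772 with DESeq2. At least 2-fold, DESeq2 called 570 genes. The chromosome 1 median was -0.501 with TMM factors computed without that chromosome and -0.506 to -0.469 with 1 library left out. Interactions among named genes numbered 20 to 22 with doxycycline and 29 to 31 with retinoic acid when 1 library was left out, and 20 to 24 and 26 to 33 over all alternatives. Signs turned for Gm28661 (-0.05 without WT replicate 1, up to 0.12 without WT replicate 2), Mtf2 (0.03) and Trp53bp1 (-0.04), the last pair with effective-length offsets; the cause was not tested. Same-numbered untreated libraries showed little shared deviation (r = -0.026 across 11444 genes). Over all pairs of groups r ran from -0.272 (WT and KO with doxycycline) to 0.152 (untreated WT and KO with doxycycline). Each group gives only 1 difference between replicates, so these values cannot show whether numbers pair the samples. A replicate block gave 5215 differing genes, 2637 higher and 2578 lower, with 837 at least 2-fold and 4530 without chromosome 1. Its chromosome 1 median was -0.477, and Phf6 stood at -2.91. Depth limits genes near 0.176 to 0.192 CPM, the floor of 3 counts.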
